A study of Mus musculus with 12 samples.

Results

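Intermediate filaments are the rope-like part of the cytoskeleton, and the 7 genes described here encode those of neurons and of the cells around them. Nefl, Nefm and Nefh encode the light, medium and heavy neurofilament subunits, Ina encodes alpha-internexin, Prph encodes peripherin, Vim encodes vimentin and Nes encodes nestin. They were taken by gene symbol from the table of protein-coding transcripts, where they made up 7 of 21981 genes and 14 of 57109 transcripts. The rule names the genes and uses no measured value, although it was written with earlier results of these data known. The level of a gene was the sum of the FPKM of its transcripts, where FPKM is the number of sequenced fragments scaled to transcript length and library size, so levels can be compared between genes.

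Total RNA depleted of ribosomal RNA was sequenced from 2 stations of the pain pathway of the face. These were the trigeminal ganglia (TG), where the sensory neurons have their cell bodies, and the nucleus in the brainstem to which their pain and temperature fibres project, the spinal trigeminal nucleus caudalis (Sp5C). The series concerns lasting inflammatory pain of the jaw joint. All 12 libraries came from wild-type C57BL/6 mice aged 8 weeks, and no transgene or deletion is named for any group. The titles gave 4 groups of 3 numbered libraries, STG and CTG from ganglia and SSp5C and CSp5C from the nucleus. The meaning of the letters S and C is not in the labels, nor is how any animal was treated, or whether a library held 1 animal or several pooled. The letters are therefore used as they stand, contrasts between them are C minus S, and p-values speak only of the spread among these libraries, which may be technical.

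The tissue labels were checked against marker genes. All 10 nociceptor genes listed were higher in TG. All 6 astrocyte genes and all 6 oligodendrocyte genes listed were higher in Sp5C. Genes of the pituitary and of bone marrow were unequal among ganglion libraries. The summed FPKM of 7 pituitary genes reached 2850 in STG replicate 1, with 2.57 to 51.6 in the remaining ganglion libraries, and that of 9 granulocyte and bone marrow genes was 871 in CTG replicate 1, 292 in CTG replicate 3 and at most 33.5 in the other TG libraries. The protein-coding FPKM summed to between 285789 and 319060 per library. The number of reads behind an FPKM value is unknown.

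Neurofilaments are heteropolymers that fill large axons and set their calibre. The light subunit forms the core with the medium and heavy subunits, whose long tails reach out from the filament, and alpha-internexin joins them in the central nervous system. Peripherin can assemble by itself or with the neurofilament subunits and is known from peripheral sensory, autonomic and motor neurons. Vimentin is the filament protein of fibroblasts, endothelium, Schwann cells and immature glia, and nestin that of neural progenitors, with expression also in vessels and Schwann cells.

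All 7 genes differed between the tissues. The neurofilament triplet, Prph, Vim and Nes were higher in the ganglion, and Ina was higher in the brainstem nucleus. Differences were tested with limma on log2(FPKM + 1), a scale that understates the change of low genes, with Benjamini-Hochberg adjustment over all 13081 genes that had a mean FPKM of at least 1 and a threshold of 0.05. Of the 7 members, 6 passed as higher in TG and 1 as higher in Sp5C, with a median log2 difference of 1.40 against 0.01 over all genes tested. Most of the transcriptome differed too: 36.2% of all genes tested passed as higher in TG, 35% as lower, and 71.2% in either direction. TG and Sp5C libraries did not overlap for any of the 7, which held for 53.7% of all genes tested. All 7 also passed, in the same directions, with STG replicate 1 and CTG replicate 1 both left out, an alternative chosen after seeing the data. In bulk tissue, fewer cells of a type and less RNA per cell cannot be told apart.

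**Figure D1:**
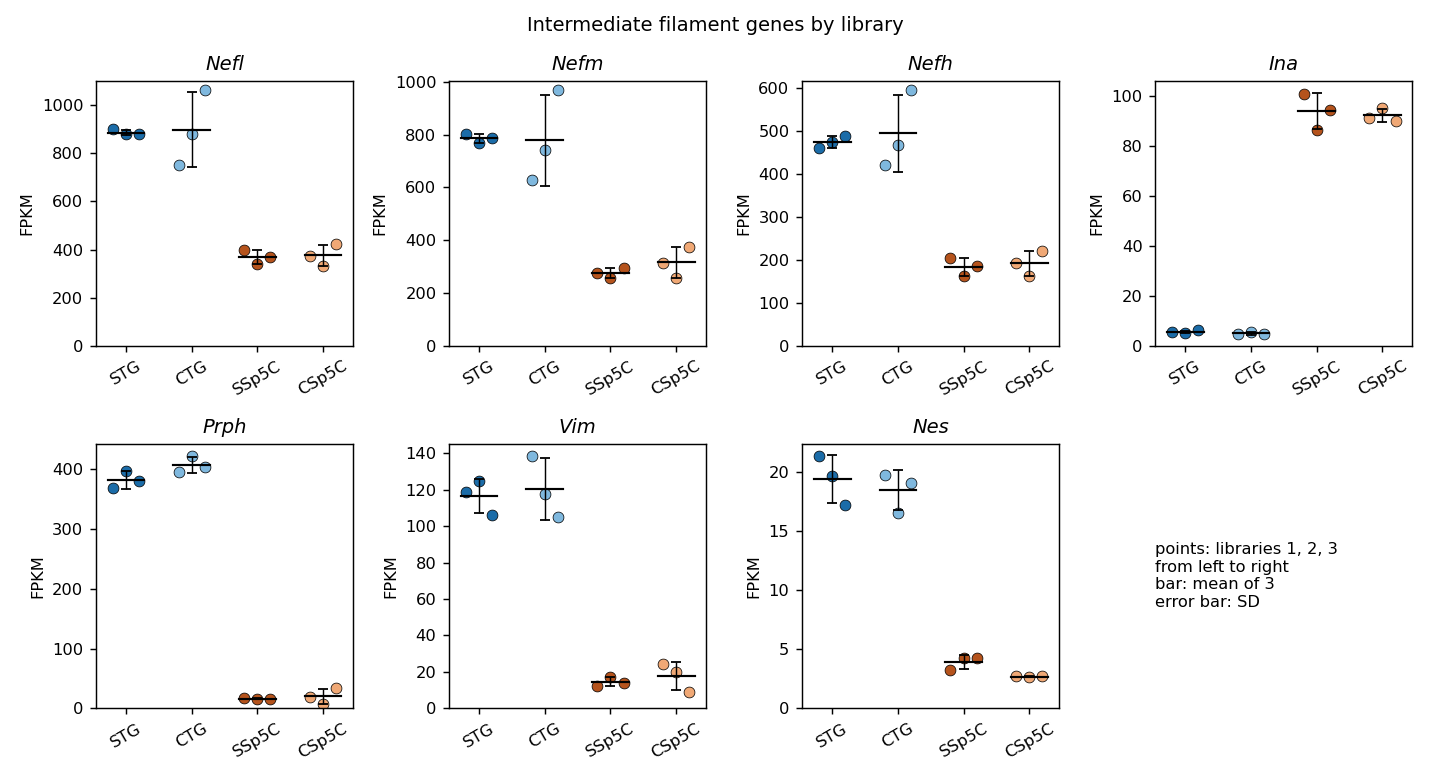
FPKM of each of the 7 genes in the 12 libraries, with the 3 libraries of a group as points from left to right, the mean as a bar and the SD as an error bar; each panel has its own linear axis from 0. Ina is the gene that stands higher in the Sp5C groups (86.3 to 101 FPKM against 4.51 to 6.06 in TG), and the CTG libraries are spread more widely than the STG libraries for Nefl, Nefm and Nefh.

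The light subunit, Nefl, had the highest level of the 7 genes in each tissue. Its FPKM was 901, 880 and 881 in STG, 752, 881 and 1065 in CTG, 397, 339 and 368 in SSp5C, and 375, 331 and 421 in CSp5C. Every ganglion library lay above every Sp5C library, and CTG had both the lowest and the highest ganglion value. The mean was 893 ± 99.8 (SD, n = 6) in TG and 372 ± 34.0 (SD, n = 6) in Sp5C, a ratio of 2.40, and the log2 difference was 1.26 ± 0.09 (SE, adjusted p = 1.12e-07).

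Nefm and Nefh encode the subunits whose tails carry the repeated phosphorylation sites of neurofilaments. Nefm stood at 803, 769 and 789 FPKM in STG, 628, 742 and 968 in CTG, 276, 258 and 294 in SSp5C, and 315, 258 and 374 in CSp5C. Nefh stood at 460, 474 and 488 FPKM in STG, 421, 468 and 594 in CTG, 203, 162 and 184 in SSp5C, and 193, 162 and 219 in CSp5C. Both genes had the pattern of Nefl, with all ganglion values above all Sp5C values and with CTG replicate 1 lowest and CTG replicate 3 highest in the ganglion. The log2 difference was 1.40 ± 0.11 for Nefm (SE, adjusted p = 3.81e-07) and 1.37 ± 0.10 for Nefh (SE, adjusted p = 1.49e-07), which are ratios of the TG mean to the Sp5C mean of 2.65 and 2.59.

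The 3 subunits kept nearly the same proportions in both tissues. Of the summed triplet FPKM, Nefl took 41.4% ± 0.605 in TG and 43.6% ± 1.42 in Sp5C, Nefm 36.2% ± 0.859 and 34.5% ± 1.81, and Nefh 22.4% ± 0.677 and 21.9% ± 0.651 (SD, n = 6 libraries per tissue). The ranges of TG and Sp5C over 6 libraries each overlapped for each of the 3 shares. Among S libraries alone they were apart for Nefl (40.8% to 41.6% in STG, 43.5% to 45.3% in SSp5C) and Nefm (36.2% to 37.1%, 31.5% to 34.8%). Among C libraries alone they were apart for Nefh (22.4% to 23.4% in CTG, 21.6% to 21.8% in CSp5C). As a share of all protein-coding FPKM, the triplet took between 0.598% and 0.899% in the ganglion libraries and between 0.243% and 0.343% in the Sp5C libraries.

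Markers of neurons in general did not all differ in the direction of the triplet. Of 6 pan-neuronal genes, 4 were higher in TG, namely the neuronal tubulin Tubb3 (log2 difference 1.60), the ubiquitin hydrolase Uchl1 (1.45), the RNA-binding protein gene Elavl4 (1.19) and the nuclear marker Rbfox3 (0.19). The 2 synaptic vesicle release genes were lower in TG, Snap25 by a log2 difference of -1.30 and Syt1 by -0.69. The part of neuron content in the triplet's difference was not tested.

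Ina, which encodes the alpha-internexin of central neurofilaments, was the one member higher in the brainstem nucleus. It stood at 5.36, 5.02 and 6.06 FPKM in STG, 4.51, 5.63 and 4.56 in CTG, 101, 86.3 and 94.3 in SSp5C, and 91.2, 95.1 and 89.9 in CSp5C. The lowest Sp5C library lay far above the highest ganglion library, and libraries within a tissue lay close together. The Sp5C mean was 17.9 times the TG mean, and the log2 difference was -3.93 ± 0.06 (SE, adjusted p = 9.45e-13). This was the 31st lowest of the 13081 differences. Within a library, the ratio of Nefl to Ina was 174 ± 30.8 in TG and 4.01 ± 0.391 in Sp5C (SD, n = 6 each).

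Prph, the peripherin gene, had the opposite pattern and the largest difference of the 7. It stood at 368, 397 and 380 FPKM in STG, 395, 422 and 405 in CTG, 17.8, 16.0 and 14.9 in SSp5C, and 19.3, 7.17 and 33.2 in CSp5C. The ganglion libraries were alike, whereas CSp5C held both the lowest and the highest Sp5C value. The TG mean was 21.9 times the Sp5C mean, and the log2 difference was 4.50 ± 0.27 (SE, adjusted p = 8.73e-08), the 38th highest of all genes tested. The ratio of Prph to Nefl was 0.446 ± 0.0515 in TG and 0.0474 ± 0.0186 in Sp5C (SD, n = 6 each). Among ganglion libraries it was highest in CTG replicate 1 (0.525) and lowest in CTG replicate 3 (0.380), the libraries with the lowest and the highest triplet. Nefl is the divisor here and part of the triplet, so this order is not independent of the triplet level.

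**Figure D2:**
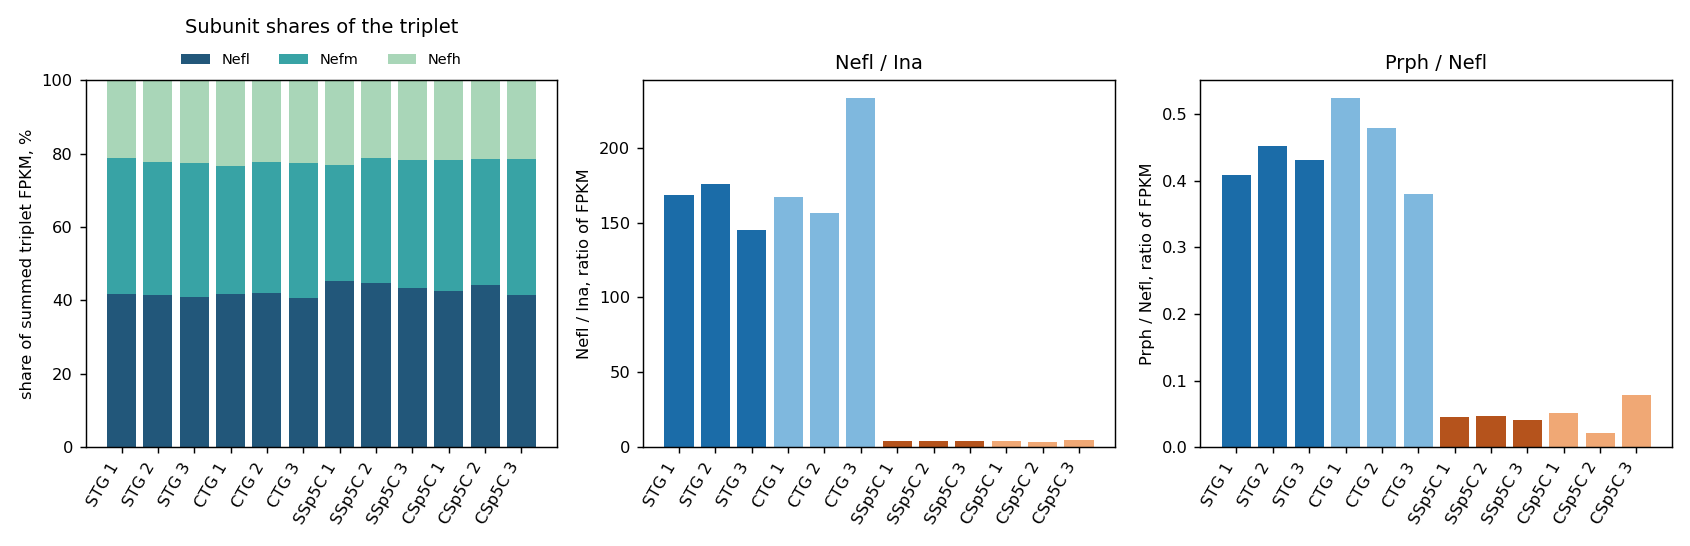
Left, percentage of the summed Nefl, Nefm and Nefh FPKM taken by each subunit in each library; middle and right, the ratios of Nefl to Ina and of Prph to Nefl in the same libraries, bars from 0 and coloured by group. The subunit shares differ by a few percentage points between libraries, whereas Nefl / Ina falls from at least 145 in TG to at most 4.68 in Sp5C and Prph / Nefl from at least 0.380 to at most 0.0788.

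The sequences just before the start of Prph and Ina are shown because these genes had the largest differences in each direction. Both are 100 bases of the RefSeq promoter windows (GRCm38.p6, plus strand) that end at the base before the RefSeq start, chr15:99055074-99055173 for Prph and chr19:47014581-47014680 for Ina. Capitals mark matches to the TATA box core TATAAA or to the GC box GGGCGG, each searched on both strands with no overlap between them; the GC boxes here lie on the minus strand and read CCGCCC.
Prph: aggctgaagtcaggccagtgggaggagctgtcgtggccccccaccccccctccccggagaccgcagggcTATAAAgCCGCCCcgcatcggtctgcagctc
Ina: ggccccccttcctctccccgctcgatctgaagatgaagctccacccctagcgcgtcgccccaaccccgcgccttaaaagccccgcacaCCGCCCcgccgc
The TATAAA of Prph began 31 bases before the start and its GC box 24 bases before it. The Ina window held a GC box 12 bases before the start and no TATAAA. In windows of this length, TATAAA was found in 5.56% and GGGCGG in 24.7% of 32851 RefSeq mouse promoters. Of the 7 genes, 4 had a window. Among the other 2, a TATAAA lay 32 bases before the RefSeq start of Vim and GC boxes 62 and 73 bases before that of Nes. The Vim window ends at chr2:13574310, but Vim-201 starts at chr2:13573952 in the GENCODE M21 annotation used below. The TATAAA thus lies downstream of that start. The Ina window ends at chr19:47014680, short of the GENCODE start at chr19:47014698. A match of letters is a description of the sequence and not of binding.

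Prph differed among Sp5C libraries together with genes of cholinergic neurons. Chat, which makes acetylcholine, stood at 3.90, 3.97 and 3.64 FPKM in SSp5C and at 4.85, 1.71 and 9.23 in CSp5C. Slc5a7, the choline transporter, stood at 11.5, 11.6 and 13.3 FPKM in SSp5C and at 17.6, 5.85 and 28.7 in CSp5C. CSp5C replicate 3 was highest and CSp5C replicate 2 lowest for Prph, Chat and Slc5a7 alike. This order was not particular to them. Nefl (421 and 331 FPKM) and Nefm (374 and 258) were highest and lowest in the same libraries. Nefh was highest in CSp5C replicate 3 too (219). Within SSp5C, Prph was highest in replicate 1 and Slc5a7 in replicate 3. The summed FPKM of the 4 motor neuron genes listed (Chat, Slc5a7, Isl1 and Mnx1) was 16.1 to 17.4 in SSp5C and 7.81 to 39.8 in CSp5C. It was 25.3 to 28.7 in STG and 25.5 to 29.6 in CTG. There most of it was Isl1, also a sensory neuron gene, with a mean of 27.1 FPKM in TG and 0.824 in Sp5C. Mnx1, a defining gene of spinal motor neurons, was listed at 0 in every library but SSp5C replicate 2 (0.0458 FPKM). The part of cholinergic neurons in the Sp5C level of Prph was not tested. In the ganglion, where Prph was high, Chat was at or under 0.0135 FPKM.

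Vim, the filament gene of mesenchymal and immature glial cells, was also higher in the ganglion. It stood at 118, 125 and 106 FPKM in STG, 139, 117 and 105 in CTG, 12.4, 17.2 and 14.1 in SSp5C, and 24.1, 19.8 and 9.11 in CSp5C. The tissues lay apart, and in Sp5C the CSp5C libraries spanned the whole SSp5C range. The TG mean was 7.35 times the Sp5C mean (log2 difference 2.86 ± 0.20 SE, adjusted p = 2.20e-07). Beside it, 5 of 6 fibroblast genes were higher in TG, and their summed FPKM lay between 506 and 915 in TG and between 31.7 and 87.3 in Sp5C. Within Sp5C the fibroblast sum was 31.7, 87.3 and 38.2 in SSp5C and 82.2, 69.3 and 34.5 in CSp5C, and the 3 libraries with the highest fibroblast sum were the 3 with the highest Vim. The same 3 libraries also had the highest summed FPKM of 6 microglia and macrophage genes. Within Sp5C that sum was highest in CSp5C replicate 1 (109) and lowest in CSp5C replicate 3, as Vim was. The astrocyte sum had the same highest (921) and lowest (664) Sp5C libraries, although all 6 astrocyte genes were lower in TG. The fibroblast sum was highest in SSp5C replicate 2 and lowest in SSp5C replicate 1. Of 6 genes listed for myelinating Schwann cells, 5 were higher in TG and 1 lower. The part of connective tissue, microglia and macrophages, astrocytes or Schwann cells in the Vim level was not tested.

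**Figure D3:**
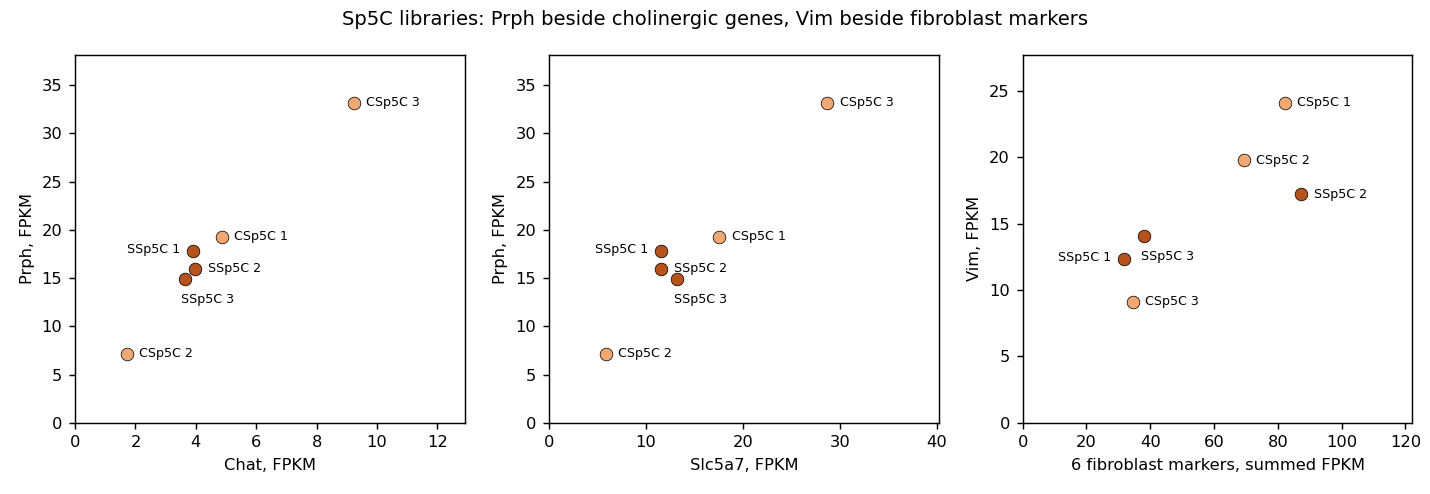
Prph against the cholinergic genes Chat and Slc5a7, and Vim against the summed FPKM of 6 fibroblast markers, in the 6 Sp5C libraries (one labelled point each, linear axes from 0). CSp5C replicate 3 (Prph 33.2 FPKM) and CSp5C replicate 2 (7.17 FPKM) stand at the ends of both Prph panels. The plots are descriptions of 6 libraries. The microglia and macrophage sum, which had the same 3 highest libraries as Vim, is not plotted. Nor are Nefl and Nefm, which had the same highest and lowest Sp5C libraries as Prph, or the astrocyte sum, which had those of Vim.

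Nes, the nestin gene, had low to moderate levels and a difference in the direction of Vim. It stood at 21.3, 19.7 and 17.3 FPKM in STG, 19.8, 16.6 and 19.1 in CTG, 3.22, 4.29 and 4.30 in SSp5C, and 2.71, 2.66 and 2.70 in CSp5C. All ganglion values exceeded all Sp5C values, and the CSp5C values all lay below the SSp5C values. The TG mean was 5.72 times the Sp5C mean, and the log2 difference was 2.22 ± 0.07 (SE, adjusted p = 2.27e-10). Beside Nes, 4 of 6 endothelial genes were lower in TG and 2 did not pass. Of 6 mural cell genes, 1 was higher, 1 lower and 4 did not pass. Of 6 genes listed for myelinating Schwann cells, 5 were higher in TG, and Mbp, which oligodendrocytes also express, was lower. The part of any of these cell types in the Nes level was not tested.

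The tissue differences were seen within each letter. Among S libraries the log2 differences were 1.27 for Nefl, 1.51 for Nefm, 1.38 for Nefh, -3.87 for Ina, 4.48 for Prph, 2.93 for Vim and 2.05 for Nes, and all 7 passed, against 62.8% of all genes tested. Among C libraries they were 1.25, 1.30, 1.36, -3.98, 4.52, 2.79 and 2.40 in the same order, and all 7 passed, against 56.7% of all genes. Standard errors were larger among C libraries for Nefl (0.15 against 0.06), Nefm (0.20 against 0.06) and Prph (0.49 against 0.07).

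**Figure D4:**
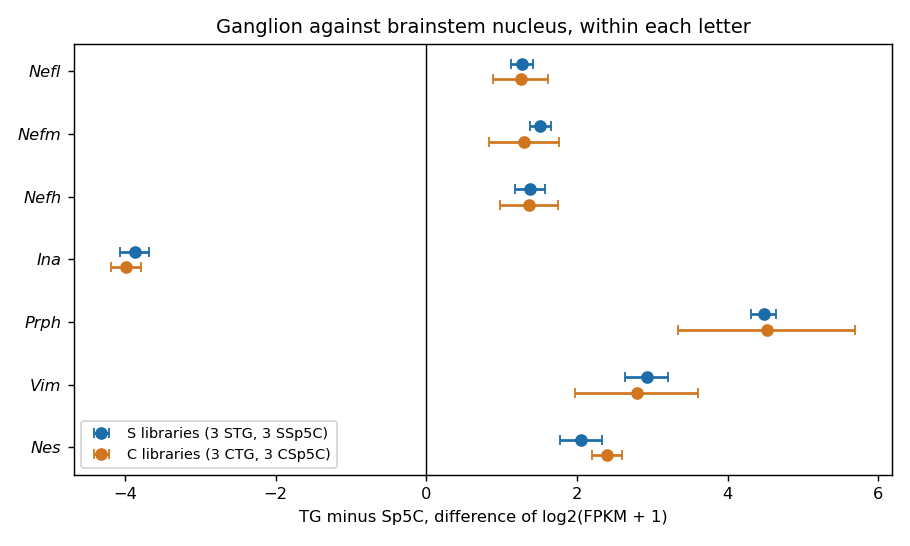
Difference of log2(FPKM + 1) between TG and Sp5C for each gene, estimated separately from the 6 S and the 6 C libraries, with 95% confidence intervals. Estimates of both letters have the same sign and lie away from 0, from -3.98 for Ina to 4.52 for Prph; for Nes they are 2.05 among S and 2.40 among C libraries, each outside the interval of the other, and the intervals of Prph, Vim, Nefl, Nefm and Nefh are wider among C libraries.

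The order of levels changed between the tissues through Ina and Prph. In TG it was Nefl, Nefm, Nefh, Prph, Vim, Nes and Ina from high to low, and in each of 6 libraries every gene lay above the next. The ranges over libraries overlapped between Nefl and Nefm and between Nefh and Prph, and were apart for the other neighbours. In Sp5C the order was Nefl, Nefm, Nefh, Ina, Prph, Vim and Nes. There Prph lay above Vim in 3 of 6 libraries, so these neighbours did not differ beyond their spread, and the ranges of Nefl and Nefm again overlapped. Among all 21981 genes ranked by mean FPKM, Nefl was 17th, Nefm 23rd, Nefh 36th and Prph 47th in TG, while Vim was 299th, Nes 3336th and Ina 8808th. In Sp5C, Nefl was 44th, Nefm 62nd, Nefh 140th and Ina 422nd, while Prph, Vim and Nes ranked 3474th, 3896th and 10274th.

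The transcripts were placed by their identifiers in the GENCODE M21 annotation of the mouse genome (GRCm38), in which all 14 were found; the build the authors used is not given in the sources used here. Nefl lies on the plus strand at chr14:68083863-68089095 and Nefm-201 on the minus strand at chr14:68119283-68124846, 30187 bases away. Nefh lies at chr11:4938754-4948064 (minus strand), Ina at chr19:47014698-47025327 (plus), Prph at chr15:99055174-99058978 (plus), Vim at chr2:13573927-13582826 (plus) and Nes at chr3:87971078-87980451 (plus). Nefl, Nefh and Ina each had 1 transcript in the table, with 4, 4 and 3 exons. Of the 14 transcripts, 11 had a mean FPKM of at least 1 over the 12 libraries. All 11 passed between the tissues, each in the direction of its gene, against 53.5% of the 20082 transcripts tested. For Vim-202, TG and Sp5C libraries overlapped.

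Nefm had a second, rare transcript that went against the main one. Nefm-202 was listed at 0.407, 0.412 and 0.354 FPKM in STG, 0.450, 0.652 and 0.508 in CTG, 1.13, 0.921 and 1.28 in SSp5C, and 0.904, 0.936 and 1.02 in CSp5C. All Sp5C values lay above all ganglion values, the reverse of Nefm-201, but the mean over 12 libraries was under 1, so it was tested only without the filter on low values (log2 difference -0.47, adjusted p = 0.000294 in limma over 46067 transcripts). It made up 0.0602% of Nefm in TG and 0.354% in Sp5C. Nefm-202 extends from the Nefm start to beyond Nefl (chr14:68082590-68124846), and 1108 of its 3680 exonic bases are also exonic in Nefl on the other strand. Whether the authors' quantification used strand is not given in the sources used here, so reads of Nefl and of Nefm-202 may not have been told apart.

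Prph-201, with 9 exons, carried most of Prph, 89.5% ± 0.804 in TG and 89.3% ± 3.08 in Sp5C (SD, n = 6). Prph-203, a fragment of 397 bases with no annotated end of its coding sequence, took 7.64% and 8.93%, and Prph-204 took 2.82% and 1.05%. Prph-202 took 0.0420% and 0.731%, lay under the filter and did not pass without it (log2 difference 0.05, adjusted p = 0.755 in limma). These shares rest on how overlapping transcripts were separated, since 1754 of the 1757 bases of Prph-201 also belong to Prph-204. Vim-201 carried 96.8% of Vim in TG and 99.0% in Sp5C, and Vim-206 was listed at 0 in every library. Vim-202, a fragment of 574 bases, took 3.15% and 0.968%. It was listed at 0 to 8.09 FPKM in TG and 0 to 0.999 in Sp5C. Its log2 difference was 1.84 (adjusted p = 0.00804 in limma), although the tissues overlapped. Nes was divided between Nes-203 (60.9% in TG, 62.3% in Sp5C) and Nes-201 (39.1% and 37.7%), so neither tissue favoured one of them beyond the spread over libraries.

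Other intermediate filament genes split between the tissues. Of 20 listed, 9 passed the filter on low values, of which 3 were higher in TG, 4 lower and 2 not called. Over all genes tested, 36.2% were higher and 35% lower, 71.2% in either direction. The median log2 difference of the list was -0.08 against 0.01 over all genes. Gfap, the filament of astrocytes, had FPKM of 28.9 ± 9.79 in ganglia and 208 ± 62.5 in the nucleus (SD, n = 6; log2 difference -2.81, adjusted p = 1.04e-05). Synm, whose product synemin builds filaments together with vimentin, had FPKM of 68.2 ± 7.45 in ganglia and 12.1 ± 0.828 in the nucleus (log2 difference 2.39, adjusted p = 1.32e-10). The nuclear lamin gene Lmna was at 42.2 ± 5.46 and 15.0 ± 0.759 FPKM (log2 difference 1.43, adjusted p = 1.27e-08). Iffo1 was at 15.7 ± 1.02 and 16.6 ± 0.537 FPKM and did not pass (log2 difference -0.08, adjusted p = 0.113). The remaining calls, named after their values were seen, were Sync as higher in TG and Bfsp2, Lmnb2 and Iffo2 as lower. The keratin genes listed had tissue means from 0 to 1.10 FPKM.

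Of 16 genes that link, carry or clear neurofilaments, 9 were higher in TG, 3 lower and 4 not called. The share over all genes tested was 71.2% in either direction, and the median log2 difference of the list was 0.49. Among the 4 with the highest levels, the kinesin light chain Klc1 (log2 difference 0.95), the filament linker Dst (0.91) and the dynein heavy chain Dync1h1 (0.70) were higher in TG, whereas Kif5a, the kinesin known as a neurofilament motor, was slightly lower (-0.21, adjusted p = 0.00499). The largest differences, named after their values were seen, were those of the small heat shock protein genes Hspb1 (2.72) and Hspb8 (2.47) and their partner Bag3 (2.23).

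Of 14 kinases and phosphatases that act on neurofilament tails, 8 were higher in TG, 3 lower and 3 not called. Beside the 71.2% of all genes called in either direction, the median log2 difference of the list was 0.23. Mapk3, which encodes the kinase ERK1, had FPKM of 256 ± 7.48 in ganglia and 50.3 ± 3.76 in the nucleus (SD, n = 6; log2 difference 2.33, adjusted p = 8.97e-12). Csnk1a1 (0.38) and Gsk3b (0.29) were higher in TG and Gsk3a (-0.53) was lower. Cdk5 itself did not pass (-0.09, adjusted p = 0.206), and its activator Cdk5r1 was lower in TG (-0.87, adjusted p = 9.81e-09); both were named after their values were seen.

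Of 17 other genes of the axonal cytoskeleton, 9 were higher in TG, 4 lower and 4 not called. Again 71.2% of all genes were called in either direction, and the median log2 difference of the list was 0.29. The 4 with the highest levels, Map1b (1.47), Tuba1a (1.09), Tubb3 (1.60) and Actb (0.29), were all higher in TG. The 4 lower genes, named after their values were seen, were Map2 (-1.74), whose protein is known from dendrites, Sptbn4 (-1.27), Tubb4a (-1.25), also an oligodendrocyte tubulin, and Ank3 (-0.27).

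Neurofilaments are abundant in large myelinated sensory neurons and peripherin in small unmyelinated ones, and markers of both were set beside the members. All 10 nociceptor genes were higher in TG (median log2 difference 4.87), among them Calca (4.92), Ret (2.97), Tac1 (2.43) and Scn10a (6.57). Of 10 genes listed for myelinated sensory neurons, 2 were higher in TG, 6 lower and 2 not called (median -0.41). Over all genes tested, 36.2% were higher and 35% lower. Fxyd7 (1.59) was higher, Ldhb (-0.62) and Pvalb (-1.59) were lower, and Thy1 did not pass (-0.09, adjusted p = 0.237). Several of these 10 are also known from neurons of the brainstem.

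The genes most like each member were found by the root mean square distance between centred log2(FPKM + 1) profiles over the 12 libraries, among 13081 genes. Nefl lay closest to Nefh (0.0697), and outside the 7 genes to Ccdc92 (0.0834), Lrsam1 (0.0851) and Gpr157 (0.0857). Nefm lay close to Map1b, a microtubule-associated protein of axons (0.0922), Hs3st2 (0.106) and Cnnm4 (0.131), and Nefh had the same 3 neighbours at 0.108, 0.103 and 0.104. Among the genes closest to Prph were the sensory neuron transcription factor Isl1 (0.323) and the nociceptor gene Calca (0.337). Closest to Ina were Elmod1 (0.143), the potassium channel Kcnd2 (0.160) and the neuropeptide Npy (0.160). For Vim they were Pqlc3 (0.158), Ston1 (0.182) and Adgrg6 (0.199), and for Nes Emp2 (0.161), Stard8 (0.178) and Tspan18 (0.180). The tissue contrast enters every distance, and no test was made.

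Between C and S libraries no member passed in either tissue. In the ganglion, 0 of 7 passed in limma and 0 had an unadjusted p under 0.05. Over all 12906 genes tested, 0.00775% passed, which is 1 gene, and 606 had an unadjusted p under 0.05; leaving out CTG replicate 1 gave 7 genes, STG replicate 2 gave 3, and either of CTG replicates 2 and 3 gave 0. The log2 differences (CTG minus STG) were 0.01 for Nefl, -0.04 for Nefm, 0.04 for Nefh, -0.14 for Ina, 0.09 for Prph, 0.04 for Vim and -0.07 for Nes, with adjusted p between 0.960 and 0.996. The 95% confidence interval for Nefl ran from -0.30 to 0.31, that for Nefm from -0.40 to 0.33 and that for Prph from -0.06 to 0.24, and differences inside these intervals could not be told from 0.

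The width of the triplet intervals in the ganglion came with the spread of CTG. The coefficient of variation of Nefl was 1.33% in STG and 17.5% in CTG, that of Nefm 2.17% and 22.2%, and that of Nefh 2.94% and 18.1%. Prph varied by 3.82% in STG and 3.36% in CTG. Beside the triplet, the summed pan-neuronal FPKM was 1716, 1906 and 2105 in CTG replicates 1, 2 and 3 and 1777, 1854 and 1826 in STG. The sum of the nociceptor genes was 1001, 1080 and 948 in CTG replicates 1, 2 and 3, and that of the genes listed for myelinated sensory neurons 662, 712 and 775. The Schwann cell sum was 6106, 5138 and 4646, the satellite glia sum 1605, 1764 and 1430, the oligodendrocyte sum 747, 559 and 465, and the granulocyte and bone marrow sum 871, 12.2 and 292. CTG replicate 1, lowest for the triplet, was also lowest of the 3 for the pan-neuronal and myelinated neuron sums. It was highest for the Schwann cell, oligodendrocyte and bone marrow sums. It was also highest for the fibroblast (788, 663 and 506), astrocyte (99.8, 63.2 and 47.5) and microglia and macrophage sums (73.7, 66.0 and 43.4). The same held for the endothelial (52.8, 37.8 and 45.0) and pituitary sums (51.6, 4.33 and 15.4). It was neither highest nor lowest for nociceptors, satellite glia or mural cells (62.1, 45.2 and 63.2). The part of tissue content in this spread was not tested. With STG replicate 1 and CTG replicate 1 both left out, no member passed either.

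In Sp5C, 0 of 7 passed in limma, and 1 of 7, Nes, had an unadjusted p under 0.05. Over all 12690 genes tested, 0.0315% passed, which is 4 genes, and 637 had an unadjusted p under 0.05; 8 genes passed without CSp5C replicate 3, 7 without CSp5C replicate 1, 1 without SSp5C replicate 1 and 0 without SSp5C replicate 2. The log2 differences (CSp5C minus SSp5C) were 0.03 for Nefl, 0.18 for Nefm, 0.06 for Nefh, -0.02 for Ina, 0.06 for Prph, 0.18 for Vim and -0.41 for Nes. The interval was widest for Prph, from -1.18 to 1.29, and for Vim, from -0.69 to 1.04. For Ina it ran from -0.18 to 0.13.

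The CSp5C and SSp5C libraries did not overlap for Nes, at 2.66 to 2.71 FPKM and 3.22 to 4.30 FPKM. The log2 difference was -0.41 with a 95% interval from -0.67 to -0.16 (unadjusted p = 0.00661, adjusted p = 0.904), and its p ranked 82nd among 12690 genes. Of all genes tested, 6.2% had CSp5C libraries entirely below SSp5C libraries and 10.9% had groups that did not overlap in either direction. The Nes difference did not pass the correction for the number of genes. Both Nes transcripts were also lower in all CSp5C libraries than in any SSp5C library (adjusted p = 0.944 for each), as were 5.67% of all transcripts tested. Across 13 alternatives the log2 difference stayed between -0.52 and -0.35 and the adjusted p between 0.510 and 0.980. The endothelial sum beside it was 67.6 to 69.0 FPKM in SSp5C and 61.8 to 75.3 in CSp5C. The mural cell sum was 63.9 to 78.7 and 69.2 to 85.7. The oligodendrocyte sum lay apart in the direction of Nes, at 3144 to 3361 in SSp5C and 2155 to 2878 in CSp5C. So did the Schwann cell sum (858 to 898 and 625 to 807), whereas the pituitary sum lay apart the other way (0.693 to 0.945 and 1.58 to 3.48). Of the 6 oligodendrocyte genes, 4 had an unadjusted p under 0.05 in limma and 0 passed. The part of vessel, oligodendrocyte or other tissue content in the Nes difference was not tested.

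**Figure D5:**
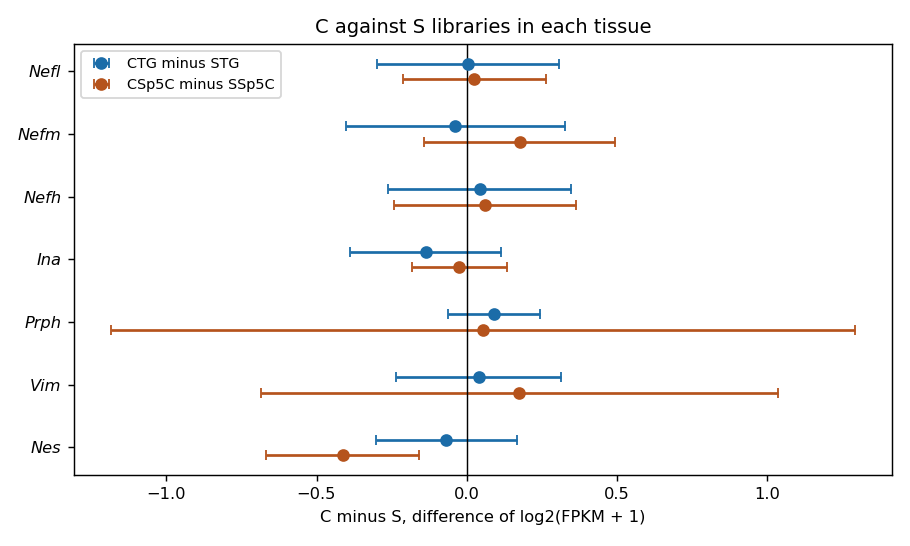
Difference of log2(FPKM + 1) between C and S libraries for each gene in TG and in Sp5C, with 95% confidence intervals (3 libraries per group). In Sp5C the interval of Nes lies below 0 (-0.67 to -0.16) before adjustment for the number of genes, that of Prph is the widest, and all other intervals include 0.

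Among member transcripts, 0 of 11 passed between CTG and STG and 0 of 10 between CSp5C and SSp5C in limma, against 0.0613% and 0.0206% of all transcripts tested. At an unadjusted p under 0.05 there were 0 in the ganglion and 1 in Sp5C, Nes-203. Prph-201 had CTG values entirely above STG values, at 356 to 378 FPKM against 333 to 356 (log2 difference 0.10, adjusted p = 0.951). CTG libraries entirely above STG libraries were found for 4.4% of all transcripts tested in the ganglion.

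The difference of both C minus S effects, tested in one fit of all 12 libraries, passed for 0 of 7 members and for 0% of the 13081 genes (1 gene without CTG replicate 1, and 2 without CTG replicate 2, SSp5C replicate 2 or SSp5C replicate 3). At an unadjusted p under 0.05 there were 708 genes, and of the members Nes alone (0.35, the ganglion effect minus the Sp5C effect, unadjusted p = 0.0396, adjusted p = 0.889). Nor did any gene of the 6 lists of filament and neuron genes pass between C and S: 0 of 75 tested in the ganglion, with 0 at an unadjusted p under 0.05, and 0 of 72 in Sp5C, with 3 at an unadjusted p under 0.05.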

How the data were processed

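The authors deposited FPKM per transcript and library, and per the submitters' processing notes the tools were HISAT2, StringTie 1.3.1 and Cuffdiff 2.1.1. Per the labels' protocols, 3 µg of Trizol-extracted RNA per library was freed of ribosomal RNA and prepared with a directional kit. Genome build, annotation and read depth were not given in the sources used here, so counting error cannot be stated. FPKM were summed per gene, log2 values were taken after adding 1, and genes with a mean of at least 1 over the libraries fitted were tested with limma 3.58.1 (R 4.3.3; trend and robust moderation; two-sided; Benjamini-Hochberg, threshold 0.05), a script tested on simulated data. The 2 tables of long non-coding RNA hold no member and were not used. Input was handled in data.table (1.17.8) and plotted with matplotlib (3.10.9).

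The members, the gene lists and the alternatives were chosen with earlier results of these data known. All members and their transcripts are described; of each list the 4 genes with the highest level are named, and genes outside that rule are marked. For each member the 3 genes with the nearest profile are named, except that a few genes are not reported here. Same-numbered CTG and CSp5C libraries deviated together from their group means (r = 0.333, 0.228 and 0.383 for numbers 1, 2 and 3). Whether the numbers pair the C libraries across tissues is not in the labels and was not tested. Alternatives were another pseudocount (0.1), no filter, median-ratio scaling, no trend, a replicate block, the highest transcript in place of the sum, a fit of all 12 libraries and leaving out each library in turn. No more than 0.0115% of values above 0 were identical between any pair of libraries.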

Additional observations from a re-analysis of the deposited data

How the results depend on the processing

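The tissue calls held under every alternative run: 7 of 7 members among all, S and C libraries, with no sign change, and 11 member transcripts, to which the test without the filter added Nefm-202 (12 in all; log2 difference -0.47). No member or member transcript passed between C and S under any. With the replicate block no gene or transcript passed between C and S (0 in each comparison), and the block changed no call of a member. For same-numbered libraries of the other group pairs, r was lower than for CTG and CSp5C. It was 0.0894, 0.191 and -0.151 for STG and CTG, and -0.127, 0.0659 and 0.103 for SSp5C and CSp5C. For STG and SSp5C it was -0.0803, -0.197 and -0.0227. No threshold was set for r. Median-ratio scaling (factors 0.971 to 1.04) moved no median of all genes by more than 0.1.

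Counts over all genes between C and S were small and moved. In the ganglion 1 gene passed, 6 with the highest transcript in place of the sum, 0 in the fit of all 12 libraries, 5 without STG replicate 1 and CTG replicate 1, and 0 to 7 with 1 library left out. In Sp5C 4 passed, 2 with the highest transcript, 0 in the fit of all 12 libraries and 0 to 8 with 1 library left out. The difference of effects passed for 0, for 2 without STG replicate 1 and CTG replicate 1, and for 0 to 2 with 1 library left out. Transcripts passing in the ganglion numbered 12, 7 with a pseudocount of 0.1, 19 without the trend, 3 in the fit of 12, 5 without both libraries and 14 to 31 with 1 left out (29 without STG replicate 1, 31 without CTG replicate 1, 30 without CTG replicate 3); in Sp5C they numbered 4, 2 with the pseudocount of 0.1, 1 without the filter, 13 without the trend, 0 in the fit of 12 and 7 to 23 with any of the 6 libraries left out. The cause was not tested.

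Signs turned in values that had not passed and were near 0 or imprecise. Imprecise ones were Vim-202 for CTG minus STG (0.40 ± 0.83 SE) and Vim for CSp5C minus SSp5C (0.18 ± 0.35 SE). Without STG replicate 1 and CTG replicate 1, CTG minus STG became 0.122 for Nefm (Nefm-201 0.121) and -0.0527 for Vim (Vim-201 -0.0454), and the difference of effects 0.113 for Nefl and 0.0702 for Nefh. Scaling turned the latter to 0.00623 for Nefl and 0.00942 for Nefh and CTG minus STG to 0.0147 for Prph-204, and the highest transcript turned the difference of effects to -0.00678 for Prph. With 1 library left out, CTG minus STG ran from -0.12 to 0.13 for Nefl, -0.21 to 0.11 for Nefm, -0.10 to 0.15 for Nefh, -0.0662 to 0.134 for Vim, -0.145 to 0.0055 for Nes, -0.0595 to 0.139 for Vim-201, -0.51 to 1.08 for Vim-202, -0.21 to 0.10 for Prph-204, -0.0153 to 0.175 for Prph-203 and -0.21 to 0.11 for Nefm-201. CSp5C minus SSp5C ran from -0.0601 to 0.112 for Nefl, -0.0423 to 0.173 for Nefh, -0.0819 to 0.0284 for Ina, -0.41 to 0.62 for Prph, -0.0885 to 0.568 for Vim, -0.0613 to 0.595 for Vim-201, -0.47 to 0.17 for Prph-203 and -0.34 to 0.66 for Prph-201. The difference of effects ran from -0.15 to 0.10 for Nefl, -0.157 to 0.0914 for Nefh, -0.53 to 0.51 for Prph and -0.53 to 0.13 for Vim.

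In all, 436 member differences kept their sign and call and 10 turned sign under the other alternatives, and 482 kept and 39 turned with 1 library left out. Depth is unknown, and 3 libraries per group limit the precision.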
